A study of Mus musculus with 16 samples.

Results

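BICC1_2 is 1 of 3 small interfering RNAs directed at Bicc1 that were transfected into primary osteoblasts from mouse skull, and here its 4 arrays were set against the 4 arrays of cells given a scrambled control siRNA (SC). The 8 arrays were taken by their titles, out of 16 in the series. The other 8 received BICC1_1 or BICC1_3. All cells were of strain C57BL6/J and of mixed sex, and were freed from the calvariae of mice aged 3 to 9 days by collagenase. They were plated at 150000 cells a well, transfected with a lipid reagent (Lipofectamine) about a day later, and total RNA was taken 48 hours after transfection and hybridised to single-colour Illumina bead arrays. No untransfected cells were analysed here, so transfection and lipid are common to both groups. The labels number the replicates without naming their cultures or litters. A p-value here therefore covers the spread among arrays alone, and that spread may be technical.

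Bicc1 encodes an RNA-binding protein with KH domains and a SAM domain. The protein assembles through its SAM domain, binds the ankyrin-repeat proteins ANKS3 and ANKS6, and controls the stability and translation of target mRNAs, among them transcripts of the polycystin pathway. A small interfering RNA guides Argonaute to complementary mRNA, which is then cut, and a partial match through its seed can also lower other transcripts. Osteoblasts make the collagen matrix of bone and mineralise it.

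Calvarial preparations can hold other cells, so marker genes were read on the 8 arrays. Of 8 osteoblast markers with a probe, 4 were detected on all 8 arrays (Sp7, Col1a1, Col1a2 and Pth1r), while Bglap and Dmp1, which mark mature osteoblasts and osteocytes, were detected on none. Macrophage markers were detected on all 8 arrays for 5 of 6 genes, and 0 of 4 endothelial markers were detected on all 8. The arrays detected 11990 to 12348 probes each, their median intensity was 84.8 to 111.2, and pairs of arrays correlated at 0.994 to 0.997. BICC1_2 replicate 3 stood somewhat apart. Relative to the 13 arrays that stood least apart, its respiratory complex I genes had a median of -0.24 log2, against -0.05 to 0.05 for those 13, and its ribosomal protein genes a median of -0.10. Results are therefore given with and without it.

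The question of the comparison was which transcripts differ after BICC1_2. Of 9560 genes or unnamed probes tested, 5 were lower (0.0523%) and 0 were higher (0%) at an adjusted p under 0.05 in limma's moderated test. They were Bicc1 itself, Ergic1, Atg5, Tnrc6c and an unnamed probe. At an unadjusted p under 0.05 there were 298 higher genes (3.12%) and 203 lower ones (2.12%). All 4 BICC1_2 arrays lay above all 4 SC arrays for 370 genes (3.87%) and below them for 261 (2.73%). The median difference over all genes was 0.003 log2, with 51.4% above 0, and the spread was narrow, from -0.18 at the 5th percentile to 0.19 at the 95th. Differences over 0.5 log2 were seen for 14 higher and 9 lower genes. The median standard error over all genes tested was 0.108. Without BICC1_2 replicate 3, 6 passed (0.0628%), which were the same 5 and a further unnamed probe that was higher. The count also depended on single arrays, inside the comparison and outside it. It was 2 without SC replicate 2. It was 9 without replicate 1 of the arrays labelled BICC1_3, which share the estimate of spread.

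**Figure D1:**
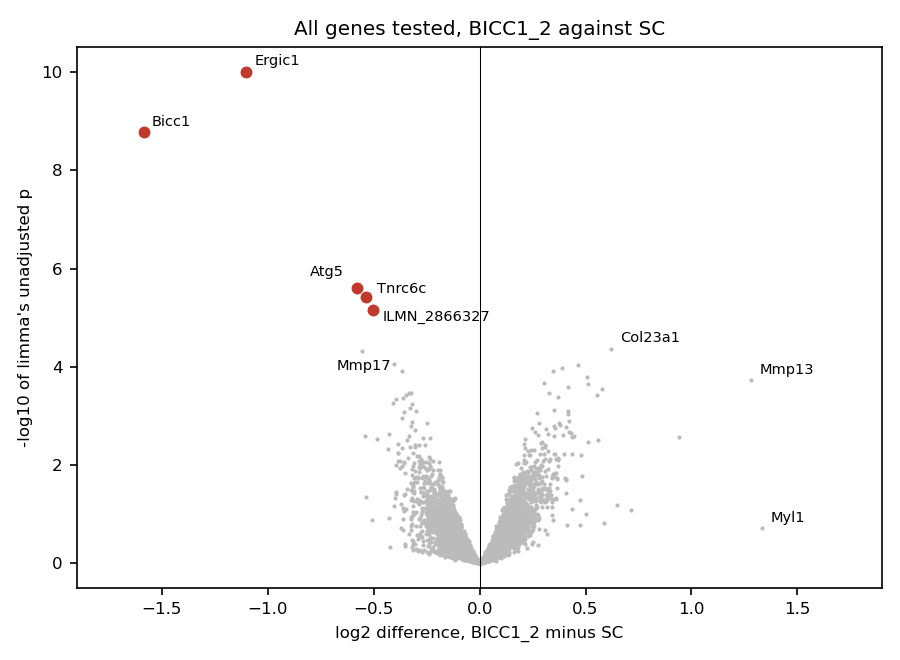
Each point is 1 of 9560 genes or unnamed probes. The x axis is the log2 difference of BICC1_2 minus SC and the y axis is -log10 of limma's unadjusted p. The 5 red points passed the adjusted threshold and all lie left of 0, with Ergic1 and Bicc1 well above the others, while Mmp13 and Myl1 lie farthest to the right in grey.

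The target itself was read by 1 probe. Bicc1 stood at 10.59, 10.66, 10.59 and 10.38 (log2 intensity) on the SC arrays, a mean of 10.55 ± 0.12 (SD, n = 4). With BICC1_2 it stood at 8.87, 9.04, 9.27 and 8.69, a mean of 8.97 ± 0.25 (SD, n = 4). The groups did not overlap, and replicate 3 held the highest of the BICC1_2 values. Bicc1 fell to 33.3% of SC (95% interval 27.5% to 40.3%), a difference of -1.59 log2 with a standard error of 0.13 and an adjusted p of 7.98e-06. Without replicate 3 the difference was -1.69 (SE 0.13).

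Ergic1, which encodes a membrane protein that cycles between the endoplasmic reticulum, its intermediate compartment and the Golgi, had the lowest p of all genes tested. Its SC arrays gave 12.27, 12.30, 12.28 and 12.30, with a mean of 12.29 ± 0.016 (SD, n = 4). Its BICC1_2 arrays gave 11.11, 11.34, 11.20 and 11.08, with a mean of 11.18 ± 0.11 (SD, n = 4). Every BICC1_2 array thus lay well below a tight SC group. The transcript fell to 46.5% of SC (95% interval 41.7% to 51.9%), a difference of -1.10 log2 (SE 0.07, adjusted p = 9.27e-07), and of -1.11 without replicate 3. Its relatives Ergic2 and Ergic3, which encode proteins of the same compartment, lay at -0.07 (SE 0.10) and 0.04 (SE 0.06) and did not pass.

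Atg5 encodes the acceptor of ATG12 in the conjugate that drives lipidation of LC3 during autophagy. On the SC arrays it stood at 10.22, 10.33, 10.27 and 10.25, and on the BICC1_2 arrays at 9.60, 9.73, 9.74 and 9.68. The groups did not overlap, and replicate 3 held the highest BICC1_2 value by a small margin. This was a fall to 66.8% of SC (59.3% to 75.4%), a difference of -0.58 log2 (SE 0.08, adjusted p = 0.00797). A further Atg5 probe gave -0.60, from 10.28, 10.26, 10.12 and 10.31 in SC to 9.53, 9.74, 9.70 and 9.62 with BICC1_2. Without replicate 3 the difference was -0.60 (adjusted p = 0.0261), and without SC replicate 2 it was -0.56 with an adjusted p of 0.0587. Under median scaling it was -0.52 and also missed the threshold (adjusted p = 0.344).

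Tnrc6c encodes a GW182 protein, which joins Argonaute to the deadenylases that silence microRNA targets. It stood at 8.39, 8.45, 8.51 and 8.29 on the SC arrays and at 7.91, 7.91, 7.89 and 7.80 with BICC1_2. The lowest SC array was above the highest BICC1_2 array. Tnrc6c fell to 69.0% of SC (61.5% to 77.4%). The difference was -0.54 log2 (SE 0.08, adjusted p = 0.00899), and -0.54 without replicate 3 (adjusted p = 0.0301). It missed the threshold without SC replicate 2 (adjusted p = 0.0605), without SC replicate 3 (0.0524) and under median scaling (-0.48, adjusted p = 0.284). In the authors' deposited log2 table the difference was smaller, -0.31, and passed.

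The fifth was probe ILMN_2866327, which has no gene symbol in the annotation used. Its values were 10.72, 10.89, 10.66 and 10.71 in SC and 10.10, 10.29, 10.33 and 10.24 with BICC1_2, without overlap. It fell by 0.51 log2 (SE 0.08, adjusted p = 0.0134), and by 0.53 without replicate 3 (adjusted p = 0.0295). It missed the threshold without SC replicate 2 (0.0870), without BICC1_2 replicate 1 (0.0695) and, by far more, under median scaling (-0.44, adjusted p = 0.966). The probe that passed only when replicate 3 was left out, of the alternatives that leave out 1 array, was ILMN_2725927, also unnamed. It stood at 5.90, 6.10, 5.90 and 5.78 in SC and at 6.67, 6.79, 5.90 and 6.56 with BICC1_2. Replicate 3 thus lay among the SC values and the other 3 arrays above them, and the difference was 0.56 (adjusted p = 0.441) with all arrays and 0.75 (adjusted p = 0.0301) without it.

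**Figure D2:**
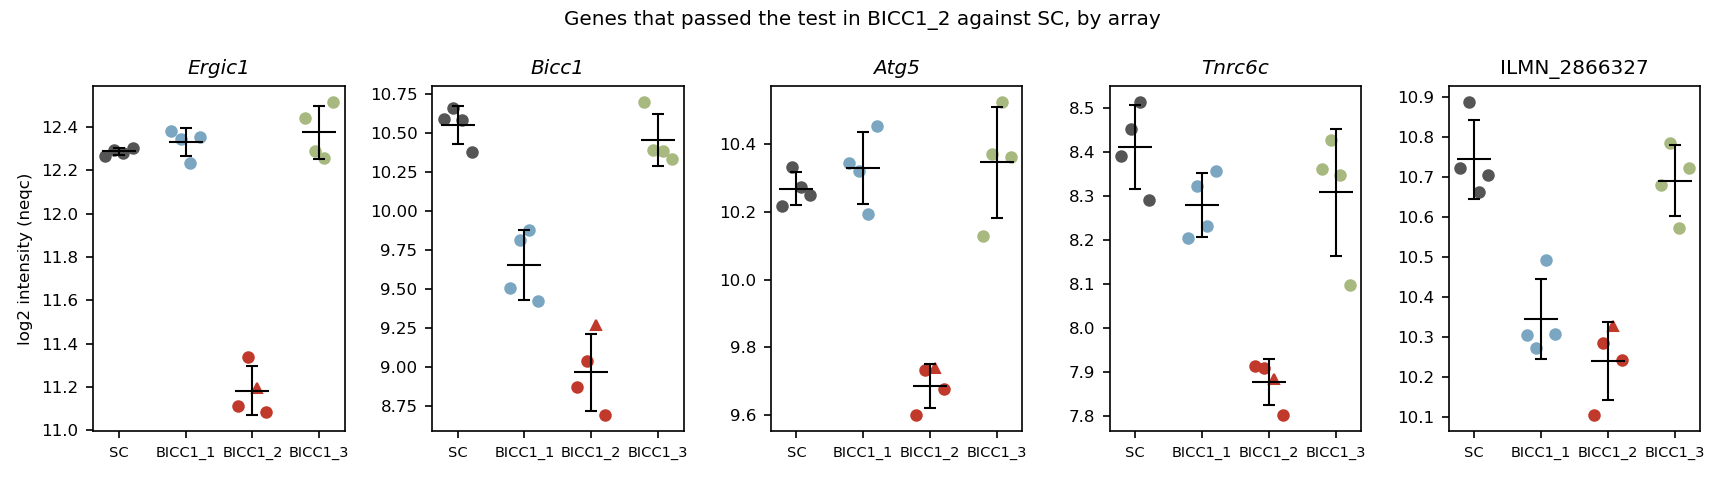
Log2 intensity of the 5 genes or probes that passed in BICC1_2 against SC, by array (points) in all 4 groups of 4, with the mean (dash) and SD (bar), and a triangle for BICC1_2 replicate 3. The y axes do not start at 0. BICC1_2 lies below SC without overlap in each panel, and BICC1_1 lies close to BICC1_2 for ILMN_2866327 alone.

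The same genes were read after the other siRNAs, which share the SC arrays and for which the differences from BICC1_2 were tested directly. Bicc1 fell by 0.90 log2 with BICC1_1, while the arrays labelled BICC1_3 gave -0.10 (adjusted p = 0.776), so that group went against its label and any direction drawn from it is one with Bicc1 mRNA near the SC level. At the adjusted threshold 27 genes differed between BICC1_2 and BICC1_1 (0.282%), 13 higher and 14 lower with BICC1_2. Against BICC1_3, 11 differed (0.115%), 2 higher and 9 lower.

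Ergic1 lay at 0.04 with BICC1_1 and 0.09 with BICC1_3 relative to SC. BICC1_2 was lower than BICC1_1 by 1.15 log2 in this gene (difference -1.15, adjusted p = 5.32e-07) and differed from BICC1_3 by -1.19 (adjusted p = 2.91e-07), past the threshold in all 19 alternatives of each contrast. Atg5 lay at 0.06 and 0.08 with the other siRNAs, and BICC1_2 differed from them by -0.64 (adjusted p = 0.00350) and -0.66 (adjusted p = 0.00164), past the threshold in 18 of 19 alternatives each. Both genes were lower after BICC1_2 than after either other siRNA.

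Tnrc6c lay at -0.13 and -0.10 with the other siRNAs. The differences from BICC1_2 were -0.40 (adjusted p = 0.0430) and -0.43 (adjusted p = 0.0387), close to the threshold, and each was missed in 12 of 19 alternatives. Leaving out any BICC1_2 array, any of SC replicates 1 to 3, or replicate 3 of BICC1_1 and replicate 1 of BICC1_3 in their own contrasts was enough to lose either, with adjusted p up to 0.266 and 0.457 over the alternatives. Bicc1 itself differed by -0.69 from BICC1_1 (adjusted p = 0.0430), which missed in 11 of 19 alternatives, among them leaving out SC replicate 1, 2 or 3, BICC1_2 replicate 1, 2 or 4, or BICC1_1 replicate 3 (adjusted p up to 0.201). ILMN_2866327 lay at -0.40 with BICC1_1, which did not pass against SC (adjusted p = 0.110), and differed from BICC1_2 there by -0.10 (adjusted p = 0.980). Against BICC1_3 it differed by -0.45 (adjusted p = 0.0300), which was lost without any 1 BICC1_2 array or without BICC1_3 replicate 1, with adjusted p up to 0.745 over the alternatives.

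Below the threshold, the 12 named genes of lowest p in each direction were described. All 12 higher genes and all 12 lower ones had groups without overlap, which the choice by p favours, and 0 of 12 and 4 of 12 passed. Those that did not pass had adjusted p from 0.0665 to 0.169. Without replicate 3 all 24 kept their direction. In the authors' deposited log2 table all 24 kept it as well, but 16 of them were smaller by over 1.5 times. There Mmp13 stood at 0.57, Col23a1 at 0.15 and Mmp17 at -0.22.

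**Figure D3:**
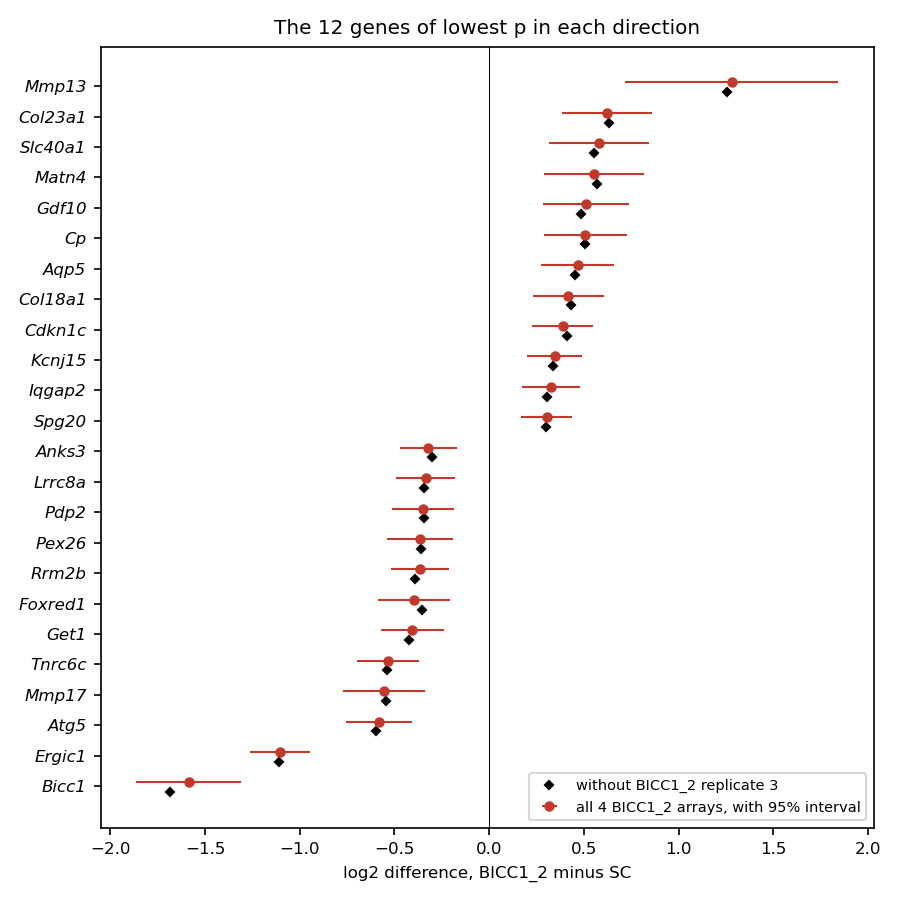
Log2 difference of BICC1_2 minus SC (x axis) for the 12 named genes of lowest p in each direction, with all 4 BICC1_2 arrays (circles, with the 95% interval) and without replicate 3 (diamonds). The diamonds lie close to the circles for all 24 genes, and 4 lower genes (Bicc1, Ergic1, Atg5 and Tnrc6c) passed the adjusted threshold.

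Of the 12 higher genes, Mmp13 had the largest difference. It encodes collagenase 3, which cleaves fibrillar collagen. It stood at 6.73, 6.79, 6.64 and 6.53 in SC and at 7.05, 7.97, 8.03 and 8.78 with BICC1_2. The groups did not overlap, but the BICC1_2 arrays spread widely (SD 0.71) with replicate 1 lowest and replicate 4 highest, and the difference of 1.28 (SE 0.27) did not pass (adjusted p = 0.128). Without BICC1_2 replicate 1 it was 1.58 and passed (adjusted p = 0.00689). A further pair of Mmp13 probes was detected on 0 of the 8 arrays. BICC1_1 and BICC1_3 lay at 0.06 and 0.24, and the differences of BICC1_2 from them, 1.22 and 1.04, did not pass (adjusted p = 0.0709 and 0.261).

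Col23a1, a transmembrane collagen, stood at 6.14, 5.94, 5.73 and 5.61 in SC and at 6.59, 6.55, 6.45 and 6.30 with BICC1_2. All BICC1_2 arrays were above SC, and the difference was 0.62 (SE 0.11, adjusted p = 0.0665). It passed without SC replicate 1 (0.72, adjusted p = 0.0220) and without BICC1_3 replicate 1 (adjusted p = 0.0372). Col23a1 was higher with BICC1_2 than with BICC1_1 by 0.77 (adjusted p = 0.00813), a contrast lost only without BICC1_2 replicate 2 of the 19 alternatives (0.0553). It did not differ past the threshold from BICC1_3 (0.33, adjusted p = 0.441). Col18a1, the basement membrane collagen whose cleaved end is endostatin, lay at 0.42 (SE 0.09), and Matn4, a matrilin of the pericellular matrix, at 0.55. The Matn4 probe was detected on 0 of 4 SC arrays and 3 of 4 BICC1_2 arrays, so it has only a bound in SC. By the group means it was at least 1.11-fold higher, a bound without an interval that includes the undetected BICC1_2 array. The probe was detected on 0 of 4 BICC1_1 and 2 of 4 BICC1_3 arrays, so it met the detection filter only through the BICC1_2 and BICC1_3 arrays together.

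Gdf10, a ligand of the TGF-beta superfamily also called BMP3B, stood at 7.33, 7.61, 7.41 and 7.15 in SC and at 7.86, 7.99, 7.96 and 7.73 with BICC1_2. Its highest SC array lay just below its lowest BICC1_2 array, and the difference was 0.51 (SE 0.11, adjusted p = 0.131). Slc40a1, the iron exporter ferroportin, lay at 0.58 (SE 0.12, adjusted p = 0.151). Cp, the ferroxidase ceruloplasmin, lay at 0.51 (SE 0.10, adjusted p = 0.118). Slc40a1 lay at 0.28 and 0.57 with the other siRNAs and Cp at 0.18 and 0.23, and no difference from BICC1_2 passed for either gene.

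Cdkn1c, which encodes the cyclin-dependent kinase inhibitor p57, lay at 0.39 (SE 0.08, adjusted p = 0.0977), with 0.25 and 0.34 after BICC1_1 and BICC1_3. Aqp5, a water channel, lay at 0.47 (SE 0.09, adjusted p = 0.0963), with 0.30 and 0.33 after the others. The remaining higher genes were the potassium channel gene Kcnj15 at 0.35, the scaffold gene Iqgap2 at 0.33 and Spg20, which encodes spartin, at 0.30. The values of the other siRNAs share the 4 SC arrays with those of BICC1_2, and for Cdkn1c and Aqp5 no difference between BICC1_2 and another siRNA passed.

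Of the 8 lower genes that missed the threshold, Mmp17, a membrane-anchored matrix metalloproteinase, came closest. It stood at 7.52, 7.47, 7.58 and 7.32 in SC and at 6.72, 6.93, 6.89 and 7.12 with BICC1_2. The groups did not overlap, with replicate 4 nearest to SC, and the difference was -0.56 (SE 0.10, adjusted p = 0.0665). It passed without BICC1_2 replicate 4 (-0.62, adjusted p = 0.0428) and without BICC1_3 replicate 1 (adjusted p = 0.0440). Get1, part of the receptor that inserts tail-anchored proteins into the endoplasmic reticulum, lay at -0.41 (SE 0.08, adjusted p = 0.0963) and passed without BICC1_3 replicate 1 (0.0242).

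Rrm2b, the p53-inducible small subunit of ribonucleotide reductase, stood at 8.80, 9.00, 8.95 and 8.97 in SC and at 8.57, 8.54, 8.64 and 8.51 with BICC1_2, without overlap (difference -0.37, SE 0.07, adjusted p = 0.0977). Lrrc8a, an essential subunit of the volume-regulated anion channel, stood at 8.65, 8.62, 8.68 and 8.77 in SC and at 8.37, 8.35, 8.37 and 8.30 with BICC1_2, also without overlap (-0.34, SE 0.07, adjusted p = 0.159). A further Lrrc8a probe, detected on all 8 arrays, gave 0.07. Both genes were lower with BICC1_2 than with BICC1_1 (-0.37 and -0.44, adjusted p = 0.0460 and 0.0279) and than with BICC1_3 (-0.45 and -0.52, adjusted p = 0.0227 and 0.00727). The Rrm2b contrast with BICC1_1 was lost without any SC or BICC1_2 array or without BICC1_1 replicate 3 (adjusted p up to 0.775 over the alternatives). That with BICC1_3 was lost without BICC1_2 replicate 1, 2 or 4 or BICC1_3 replicate 1 (up to 0.620). The Lrrc8a contrast with BICC1_1 was lost without any BICC1_2 array (up to 0.170), and that with BICC1_3 passed in 18 of 19 alternatives.

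Anks3 encodes an ankyrin-repeat protein that binds the Bicc1 protein. It stood at 9.45, 9.59, 9.45 and 9.51 in SC and at 9.15, 9.19, 9.12 and 9.23 with BICC1_2, without overlap, and the difference of -0.32 (SE 0.07) did not pass (adjusted p = 0.159). A dimmer Anks3 probe gave 6.53, 6.63, 6.61 and 6.40 in SC and 6.05, 5.84, 6.20 and 6.05 with BICC1_2, a difference of -0.51 in the same direction and again without overlap. A further probe, detected on 3 of the 8 arrays, gave -0.13. The remaining lower genes were Pdp2, a phosphatase subunit that activates pyruvate dehydrogenase, at -0.35, and Pex26, a peroxisome assembly factor, at -0.36. The last was the complex I assembly factor Foxred1 at -0.40. Further probes detected on all 8 arrays gave -0.23 for Pdp2 and -0.15 and -0.26 for Foxred1, each with overlap.

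Gene lists were read by counts and medians, beside the median of 0.003 and the 51.4% above 0 over all genes. Of the partners of Bicc1 and the polycystins, 5 of 9 tested members lay above 0 with a median of 0.007. In it Bicc1 passed, Anks6 lay at 0.007 (SE 0.10) and Pkd1, polycystin-1, at 0.13 (SE 0.10). Of the genes of transport from the endoplasmic reticulum to the Golgi, 20 of 42 lay above 0 (median -0.01) and Ergic1 passed. The member next in size was Bet1, a SNARE of that step, at 0.28 (SE 0.10).

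In the core autophagy list 19 of 31 members lay above 0 (median 0.01) and Atg5 passed. Atg12, whose product is joined to ATG5, stood at 10.73, 10.79, 10.72 and 10.79 in SC and at 10.35, 10.60, 10.63 and 10.50 with BICC1_2. These groups did not overlap, yet the difference of -0.24 (SE 0.08) was far from the adjusted threshold (0.722). Atg12 was lower with BICC1_2 than with BICC1_1 by 0.47 log2 (difference -0.47, adjusted p = 0.0366). Part of that gap lay in BICC1_1, which stood 0.23 above SC (adjusted p = 0.631 in limma's test), with its replicate 3 highest at 11.19. The difference from BICC1_3 did not pass (-0.31, adjusted p = 0.310). Atg16l1, the partner of that conjugate, lay at -0.06 (SE 0.08), Atg7, the activating enzyme, at 0.005 (SE 0.12), and the kinase gene Ulk1 at 0.20 (SE 0.08). The autophagy receptor gene Calcoco1 lay at 0.26 (SE 0.10). Of the other ATG genes, Atg10 and Atg2b lay at 0.19 (SE 0.09) and 0.15 (SE 0.07), while Atg3, Atg2a, Atg13, Atg4c, Atg4b and Atg101 lay between -0.04 and 0.09. None of these members but Atg5 passed against SC.

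In the microRNA silencing list 14 of 23 lay above 0 (median 0.03) and Tnrc6c passed. The other GW182 genes, Tnrc6a and Tnrc6b, both lay at 0.14 (SE 0.07 and 0.14), Prkra, which encodes the Dicer partner PACT, at 0.19 (SE 0.07), and the Argonaute genes Ago2 and Ago3 at -0.01 and -0.04. In each of these 4 lists the member that passed lay far outside the rest, as the plot of list members shows.

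**Figure D4:**
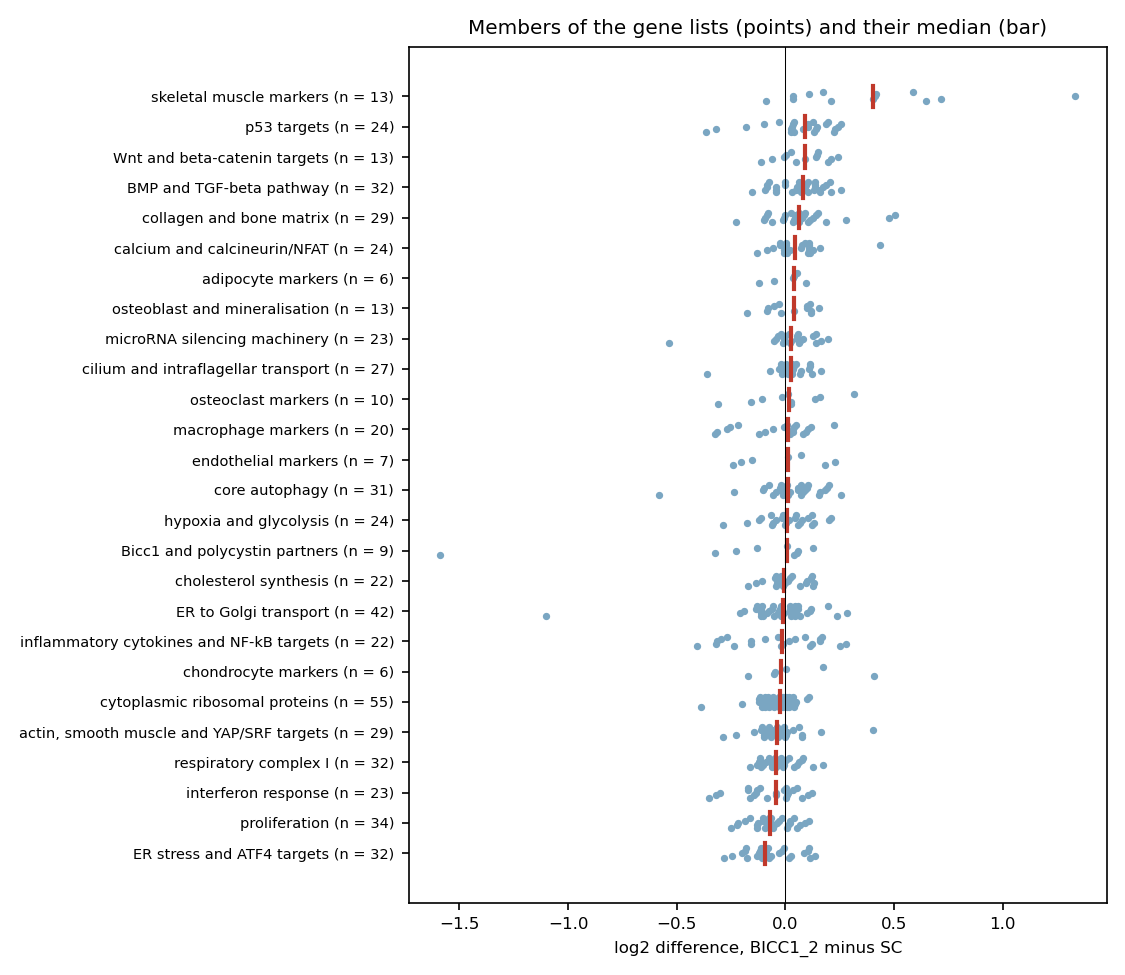
Log2 difference of BICC1_2 minus SC (x axis) for the tested members (points) of 26 gene lists, with each list's median (bar) and number of members. Most medians lie within 0.1 of 0, skeletal muscle markers lie highest at 0.40, and the points far to the left are Bicc1, Ergic1, Atg5 and Tnrc6c.

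In the 5 lists of bone formation and its signalling 0 members passed, where 0.0523% of all genes did. Of the osteoblast and mineralisation genes 7 of 13 lay above 0 (median 0.04), with Sp7, the transcription factor osterix, at -0.05 (SE 0.08), Alpl, the alkaline phosphatase of mineralisation, at 0.12 (SE 0.16) and Phex, an endopeptidase of mineralising cells, at 0.16 (SE 0.11). Ank, which exports the mineralisation inhibitor pyrophosphate, lay at -0.18 (SE 0.07). Of the collagen and bone matrix genes 21 of 29 lay above 0 (median 0.06). The largest differences there were those of Eln, elastin, at 0.50 (SE 0.29) and the proteoglycan gene Lum at 0.48 (SE 0.23), both with overlap. Dcn, decorin, lay at 0.28 (SE 0.10) and Col1a1, the main collagen of bone, at 0.08 (SE 0.11). Of the BMP and TGF-beta genes 22 of 32 lay above 0 (median 0.08), and in 4 of them all BICC1_2 arrays lay above all SC arrays and in 0 below them, against 3.87% and 2.73% of all genes. These 4 included Id4, which encodes a helix-loop-helix inhibitor, at 0.26 (SE 0.11), and the receptor-regulated Smad5 and Smad2 at 0.17 and 0.14. The activin receptor gene Acvr2a was detected on 0 of 4 SC arrays and 1 of 4 BICC1_2 arrays. Of the Wnt targets 10 of 13 lay above 0 (median 0.09), with the Wnt antagonist Wif1 at 0.24 (SE 0.09), the adhesion molecule gene Nrcam at 0.21 (SE 0.08) and Axin2, the canonical feedback target, at -0.01. Of the calcium and NFAT genes 17 of 24 did (median 0.05), with the calcineurin regulator Rcan2 at 0.43 (SE 0.14) and the transcription factor Nfatc1 at 0.16 (SE 0.09).

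Lists of stress and growth held 0 genes that passed, against the same 0.0523% of all genes. In p53 targets 19 of 24 members lay above 0 (median 0.09), and all BICC1_2 arrays lay above all SC arrays for 6 of them and below for 2, against 3.87% and 2.73% of all genes. The 2 lower ones were Rrm2b, given above, and Tnfrsf10b, a TRAIL receptor, at -0.32 (SE 0.19). Cdkn1a, the cell cycle inhibitor p21, lay at 0.10 (SE 0.07) and the death receptor gene Fas at 0.24 (SE 0.08). With BICC1_1 and BICC1_3 the p53 median was 0.07 and 0.14. In endoplasmic reticulum stress and ATF4 targets 25 of 32 lay below 0 (median -0.09), with Shmt2, the mitochondrial serine hydroxymethyltransferase, at -0.28 (SE 0.12), Phgdh, the first enzyme of serine synthesis, at -0.25 (SE 0.25) and Pdia6, a disulphide isomerase, at -0.18 (SE 0.07). BICC1_2 replicates 1 to 3 lay at -0.10 in this median and replicate 4 at 0.05. In proliferation genes 25 of 34 lay below 0 (median -0.07), with the replication helicase gene Mcm3 at -0.25 (SE 0.19) and the mitotic kinase gene Aurka at -0.22 (SE 0.07). This median was -0.01 under median scaling, where the median of all genes was 0.05. In actin, smooth muscle and YAP/SRF targets 21 of 29 lay below 0 (median -0.04), with the desmin gene Des at 0.40 (SE 0.15) and Ajuba, a LIM protein gene detected on 2 of 4 SC arrays and 0 of 4 BICC1_2 arrays.

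Inflammatory genes were not called either. Interferon genes had a median of -0.04 (14 of 23 below 0), with the ubiquitin-like modifier gene Isg15 at -0.35 (SE 0.41) and Ddx58, the RNA sensor RIG-I, at -0.32 (SE 0.32). Cytokines and NF-kB targets had a median of -0.01 (12 of 22 below 0), with Tnfaip3, which encodes the NF-kB inhibitor A20, at -0.32 (SE 0.12). Cxcl12, a chemokine that holds blood-forming cells near osteoblasts, stood at 9.93, 9.76, 9.79 and 9.87 in SC and at 9.34, 9.65, 9.38 and 9.34 with BICC1_2. The groups did not overlap, and the difference was -0.41 (SE 0.10, adjusted p = 0.190). Cholesterol synthesis (median -0.01), hypoxia and glycolysis (0.01), cilium genes (0.03), ribosomal proteins (-0.02) and complex I (-0.04) lay close to all genes. For complex I the median was 0.02 without replicate 3. In the cholesterol synthesis list, which also holds fatty acid genes such as Fads1, the members of largest difference were Fads1 (-0.17, SE 0.07) and Dhcr7 (-0.13, SE 0.12). They were Pfkp (-0.29, SE 0.26) and Pdk1 (0.21, SE 0.10) in glycolysis, and Ift88 (-0.36, SE 0.19) and Nphp4 (0.16, SE 0.08) in cilia. In ribosomal proteins they were Rps15a (-0.39, SE 0.13) and Rpl22l1 (-0.20, SE 0.31), and in complex I Ndufs3 (0.17, SE 0.10) and Ndufa3 (-0.16, SE 0.47).

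Markers of other cell types were lists of their own. Medians were 0.01 for macrophage genes (11 of 20 above 0), 0.02 for osteoclast genes (6 of 10), 0.01 for endothelial genes (4 of 7), 0.04 for adipocyte genes (4 of 6) and -0.02 for chondrocyte genes (3 of 6). Their members of largest difference were Lyz2 (-0.32, SE 0.19) and the chemokine gene Ccl3 (-0.32, SE 0.18) for macrophages, the RANK gene Tnfrsf11a (0.32, SE 0.14) and the gelatinase gene Mmp9 (-0.31, SE 0.13) for osteoclasts, and Esam (-0.24, SE 0.15) and Tek (0.23, SE 0.15) for endothelium. For adipocytes they were Gpd1 (-0.12, SE 0.13) and Lpl (0.09, SE 0.10), and for chondrocytes Sox9 and Sox5 (0.18, SE 0.13). Sox9, the chondrogenic transcription factor, stood at 8.001, 7.762, 7.798 and 7.811 in SC and at 8.143, 7.997, 8.558 and 8.303 with BICC1_2. The ranges overlapped by 1 array, replicate 3 was highest, and the difference was 0.41 with it and 0.30 without it (adjusted p = 0.361 and 0.793). Col2a1, the cartilage collagen, lay at -0.17 (SE 0.11).

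Skeletal muscle genes stood highest of the lists, with 12 of 13 members above 0 and a median of 0.40, or 0.32 without replicate 3. No member passed the test. By array, the median relative to the SC mean was -0.07, -0.04, 0.37 and -0.27 in SC. With BICC1_2 it was 0.33, 0.43, 0.33 and -0.03, so SC replicate 3 lay above BICC1_2 replicates 1, 3 and 4. In bulk cultures more muscle cells and more RNA per cell cannot be told apart. Myl1, a fast myosin light chain, stood at 8.03, 8.31, 9.18 and 5.09 in SC and at 9.04, 9.49, 9.58 and 7.83 with BICC1_2. Replicate 4 was lowest in both groups and the groups overlapped, so the difference of 1.33 had a standard error of 0.98. Mb, the oxygen store myoglobin, stood at 5.77, 5.30, 5.87 and 4.58 in SC and at 6.63, 6.52, 6.39 and 4.85 with BICC1_2. Here too replicate 4 was lowest in each group (difference 0.72, SE 0.39).

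Acta1, skeletal actin, stood at 10.34, 10.21, 10.57 and 10.72 in SC and at 11.02, 10.74, 10.79 and 10.96 with BICC1_2 (difference 0.42, SE 0.10). It was the 1 gene of the 13 without overlap, where 3.87% of all genes lay above SC on all 4 arrays and 2.73% below. Des, the muscle intermediate filament desmin, lay at 0.40 (SE 0.15) with overlap. The summed linear level of the 13 genes was 3857 to 4719 on the SC arrays and 4468 to 5299 with BICC1_2. Of 5 defining markers with a probe, Acta1 and Myog were detected on all 8 arrays and Myl1 on 7. Ckm and Myod1 were detected on 0 of the 8. The list's median fell to 0.10 when only genes detected on all 8 arrays were used, and to 0.11 in the authors' deposited log2 table. Over the 20 alternatives it ran from 0.04 to 0.44. It was -0.26 and -0.21 with BICC1_1 and BICC1_3. Relative to the 13 arrays that stood least apart, the lowest arrays there were BICC1_1 replicate 3 (-0.59) and BICC1_3 replicate 1 (-0.61). The other arrays of those groups ran from -0.23 to 0.14, within the SC range of -0.33 to 0.33. Whether muscle RNA has a part in the other differences was not tested.

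**Figure D5:**
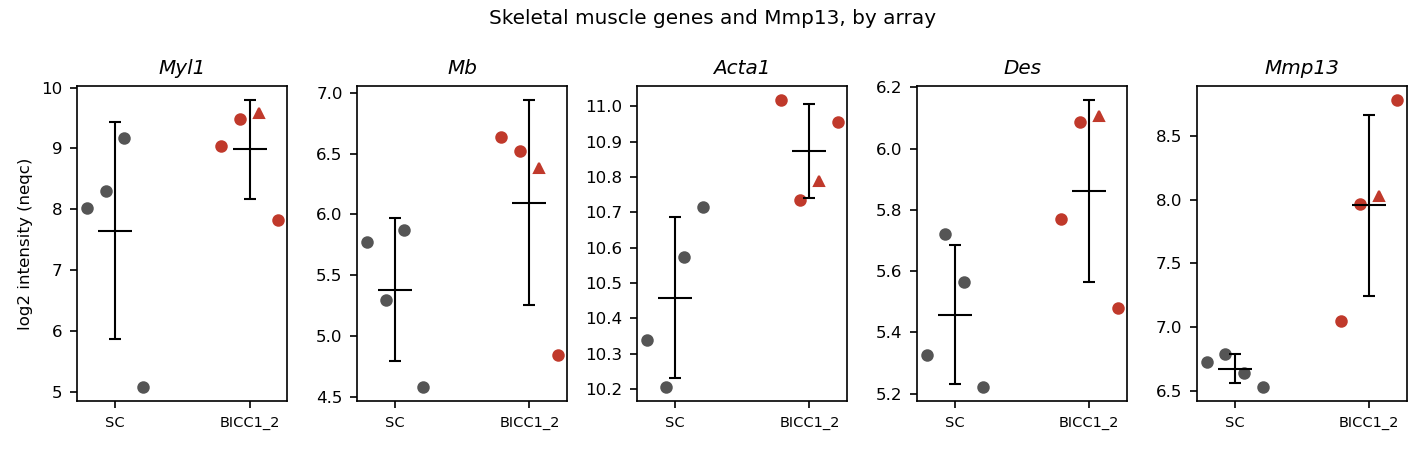
Log2 intensity of 4 skeletal muscle genes and Mmp13 by array (points) in SC and BICC1_2, 4 arrays each, with the mean (dash) and SD (bar) and a triangle for BICC1_2 replicate 3. The y axes do not start at 0. Myl1 and Mb are lowest on replicate 4 of both groups, whereas Mmp13 is highest on BICC1_2 replicate 4 and does not overlap SC.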

How the data were processed

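RNA was measured on 16 single-colour Illumina bead arrays, 4 a group, grouped by sample title. The authors deposited bead intensity per probe on a linear scale, which per the file headers is not normalised. The submitters' processing notes name GenomeStudio. The deposited detection p-value column runs near 1 for bright probes, so 1 minus it was used. A deposited table of log2 values, whose transform is not given in the sources used here, served as an alternative.

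Intensities were corrected and normalised with neqc (limma 3.58.1, R 4.3.3; offset 16, quantile, log2). Of 25697 probes, 12802 had a detection p under 0.05 on at least 4 arrays. The brightest probe stood for each gene, leaving 9560 (8832 named, 728 unnamed). Symbols came from the platform annotation (23978 probes with 1, 0 with several and 1719 with none), and 23962 Entrez identifiers were found in a RefSeq table of GRCm38.p6. A linear model over the 4 groups (lmFit, eBayes, 12 residual degrees of freedom) gave adjusted p by Benjamini-Hochberg over all 9560, with a threshold of 0.05, and 95% intervals. The number of arrays limits the precision. No arrays held identical values. The fit was tested on simulated data.

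Named genes were those that passed, the 12 of lowest p in each direction, those passing without BICC1_2 replicate 3, and in each of 26 lists the 2 members of largest difference and relatives of the genes that passed. Further list members were named after their values were seen. Comparisons and lists were chosen with earlier results of these data known.

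Same-numbered SC and BICC1_2 arrays deviated together only weakly (r -0.08 to 0.16, over 0.1 in 2 of 4 pairs), so numbers were not taken as pairs. Alternatives were other normalisation, filters, probes, priors, weights and samples. A lower bound on a fold change used, per array, the higher of the probe's own value and the lowest value among detected probes.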

Additional observations from a re-analysis of the deposited data

Results flagged for a closer look

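In 52 groups of 4 arrays checked for a value far from the others, 1 was found, where chance flags about 1 in 20. Kcnj15 stood at 7.06 on BICC1_2 replicate 1, against 7.21 to 7.24 on the other 3 BICC1_2 arrays.

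Differences between BICC1_2 and another siRNA passed limma's test of the difference itself for all 5 genes or probes lower than SC. Ergic1 differed from BICC1_1 by -1.15 log2 and from the arrays labelled BICC1_3 by -1.19. Atg5 differed by -0.64 and -0.66, Tnrc6c by -0.40 and -0.43, and Bicc1 by -0.69 and -1.49. ILMN_2866327 differed from BICC1_3 by -0.45 and not past the threshold from BICC1_1.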

How the results depend on the processing

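The count of genes that passed against SC was 5. It was 2 under median scaling and 2 to 9 when 1 array was left out. Array weights gave 60, of which 27 were higher and 33 lower. Leaving out BICC1_2 replicate 3, BICC1_1 replicate 3 and BICC1_3 replicate 1 at once gave 11, of which 2 were higher and 9 lower. Under median scaling the median of all genes was 0.05 with 69.1% above 0. The cause of these changes was not tested. Bicc1 (-1.69 to -1.31) and Ergic1 (-1.16 to -1.07) passed in all 20 alternatives, Atg5 in 18, and Tnrc6c and ILMN_2866327 in 17 each, with no change of sign. Against BICC1_1 the count of 27 became 2 with median scaling, 71 with array weights and 3 to 43 when 1 array was left out. Against BICC1_3 the count of 11 became 2 with median scaling, 17 in the authors' deposited log2 table, 7 without the 3 arrays and 5 to 12 when 1 array was left out. A fit with the replicate block, for arrays that share only a number, gave 6 against SC (5 lower, and Col23a1 higher with an adjusted p of 0.0105), 6 against BICC1_1 and 6 against BICC1_3, and 2 of 4 BICC1_2 arrays correlated best with the SC array of their own number. The fit on the 8 arrays alone has no contrast with the other siRNAs.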

Other observations

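Some genes passed only under alternatives, and were chosen here after their values were seen. Ecrg4, which encodes a secreted peptide precursor, stood at 7.34, 7.37, 7.02 and 7.29 in SC and at 8.53, 8.01, 7.93 and 8.31 with BICC1_2, without overlap. The difference was 0.94 (SE 0.27, adjusted p = 0.410) in limma's fit over 4 groups. It passed when only the 8 arrays were fitted (0.95, SE 0.13, adjusted p = 0.0350), with array quality weights (0.92, adjusted p = 0.00870) and without the 3 arrays that stood apart (1.03, adjusted p = 0.0362). The other siRNAs lay at 0.00 (BICC1_1) and -0.16 (BICC1_3) relative to the same SC arrays.

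Kank3, an ankyrin-repeat gene, stood at 5.62, 5.45, 5.58 and 5.62 in SC and at 6.03, 6.04, 5.91 and 6.00 with BICC1_2, again without overlap (difference 0.43, adjusted p = 0.410). It passed when only the 8 arrays were fitted (adjusted p = 0.0472) and with array quality weights (0.0269).

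Lyz2, the macrophage lysozyme, stood at 11.96, 11.76, 11.86 and 11.92 in SC and at 11.45, 11.54, 11.88 and 11.35 with BICC1_2. Replicate 3 alone lay among the SC values. Without the 3 arrays that stood apart the difference was -0.43 and passed (adjusted p = 0.0288), whereas leaving out BICC1_2 replicate 3 alone gave the same difference without passing.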
